A study of Mus musculus with 18 samples.

Results

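The mitochondrial genome of the mouse encodes 13 proteins, and each of them is a subunit of the respiratory chain or of the ATP synthase. The mRNAs of 10 of these subunits are described here, taken by gene symbol from the 116873 transcript entries of the count table and not by any measured value. They are *mt-Nd1*, *mt-Nd2*, *mt-Nd4*, *mt-Nd5* and *mt-Nd6* of complex I, *mt-Cytb* of complex III, *mt-Co1*, *mt-Co2* and *mt-Co3* of complex IV, and *mt-Atp6* of complex V. All 10 were found, each as 1 transcript. RNA had been isolated from the brains of 10-month-old mice of a C57BL/6 background, either wild type (WT) or homozygous for an *Atxn2*-CAG100-knockin allele (KIN). In this allele a CAG100 expansion takes the place of a single glutamine codon of the endogenous gene, so that every cell of the KIN mice carries it. Magnetic beads removed first the CD11b-positive cells (microglia) and then the ACSA-2-positive cells (astrocytes) from each dissociated brain, and the neuronal fraction is what remained after non-neuronal cells and CD31-positive cells had been held back. There were 3 libraries for each fraction and genotype, 18 in all, and the fractions of a brain share an animal, although the labels do not say which libraries do.

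Each of these subunits is made inside the mitochondrion and assembled with many partners that are encoded in the nucleus. Complex I takes electrons from NADH, complex III passes them from ubiquinol to cytochrome c, complex IV hands them to oxygen, and complex V uses the proton gradient to make ATP. The mRNAs are cut from long transcripts of either DNA strand, mostly at the tRNAs that lie between them, so that their levels depend on stability as well as on transcription.

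The libraries were made by panRNA-Seq, in which poly(A) is added to all RNA molecules and short fragments at their 3′ ends are read, so that counts were not divided by the length of an mRNA and the mRNAs are not ranked against each other. The libraries held between 761481 and 3296398 counts, the neuronal ones the fewest, and the 10 most abundant transcripts took 75.8% to 85.4% of each. The 10 mitochondrial mRNAs summed to between 182 and 3784 counts a library. Levels are given below as CPM, counts per 1000000 of the library size after scaling by the trimmed mean of M-values (TMM). Of the fraction markers, 6 for astrocytes summed to 281 to 704 CPM in the astrocyte libraries and to at most 24.2 CPM elsewhere, and 6 for microglia to 456 to 762 CPM in the microglial libraries and to at most 10.8 CPM elsewhere. In the neuronal libraries, *Tubb3* was at 55.0 to 109 CPM and *Gad1* at 9.0 to 25.9 CPM, but *Snap25*, *Syt1*, *Rbfox3* and *Slc17a7* stayed at or under 6.4 CPM, and haemoglobin genes of red blood cells summed to 110 to 435 CPM. The 6 neuronal markers summed to 76.7 to 108 CPM in WT and 89.4 to 141 CPM in KIN neurons, but also to 98.9, 26.2 and 84.6 CPM in the WT astrocyte libraries, where *Snap25*, at 8.2 to 26.6 CPM, was above every neuronal library. In WT microglia they summed to 11.2 to 45.5 CPM, and in KIN astrocytes to 21.7 to 36.2 CPM. The astrocyte libraries also held 256 to 396 CPM of 4 oligodendrocyte markers. The library of WT neurons replicate 2 stood apart in its group, with 203 CPM of oligodendrocyte markers, almost all from the myelin gene *Mbp* (196 CPM), against 6.7 and 16.0 CPM in the other WT neuronal libraries. The values without it are given beside the comparisons of the WT neurons.

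The 3′ ends of the coding sequences are shown because the stop codon of 3 of these mRNAs is not complete in the DNA. The bases are those of the GRCm39 mitochondrial chromosome, read 5′ to 3′ on the coding strand, with the stop codon, or the part of it that the DNA holds, in capitals.
mt-Nd4, chrM:10167-11544, plus strand: aactaattacaggcctgacaataT
mt-Co3, chrM:8607-9390, plus strand: tctccatttattgatgaggatctT
mt-Cytb, chrM:14145-15288, plus strand: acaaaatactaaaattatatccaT
mt-Co1, chrM:5328-6872, plus strand: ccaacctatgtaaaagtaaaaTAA
mt-Co2, chrM:7013-7696, plus strand: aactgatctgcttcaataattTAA
mt-Nd5, chrM:11742-13565, plus strand: ttatactcaattaatctcgagTAA
mt-Nd6, chrM:13552-14070, minus strand: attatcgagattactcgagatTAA
mt-Atp6, chrM:7927-8607, plus strand: ctatatctacatgataatacaTAA

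For *mt-Nd4*, *mt-Co3* and *mt-Cytb* the annotated gene ends on a single T, and the poly(A) tail is known to complete the stop codon. *mt-Nd1* (chrM:2751-3707) and *mt-Nd2* (chrM:3914-4951), which like 4 of those above lie on the plus strand with a full stop codon, end on TAG. *mt-Nd6* is the single member on the minus strand, and its 3′ end crosses that of *mt-Nd5* over 14 bases, chrM:13552-13565, which read ttaatctcgagtaa on the plus strand. Counting did not use the strand, so a read inside this overlap cannot be given to either gene, nor can reads antisense to a member be set apart. *mt-Atp6* shares 43 bases with *mt-Atp8* at its start and 1 base with *mt-Co3* at its end.

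A second source of shared reads is the nuclear genome. Copies of mitochondrial DNA on chromosome 1 are annotated as unprocessed pseudogenes, lie on the minus strand, and are listed in the same count table. *Gm28439* (chr1:24650616-24651491) is identical to *mt-Nd4* over its 876 bases, *Gm28437* (chr1:24652270-24653052) to *mt-Co3* over 783, *Gm10925* (chr1:24653055-24653732) to *mt-Atp6* over 678, and *Gm28661* (chr1:24653966-24654646) to *mt-Co2* over 681. *Gm29216* (chr1:24654787-24655278) covers the last 492 bases of *mt-Co1* and differs from it at 6 bases, all within the first 30. Those 30 bases are shown because they hold all the bases that differ within the part of *mt-Co1* that the copy covers, with the differing bases in capitals and positions counted from the first base of *mt-Co1*.
mt-Co1, bases 1054 to 1083: ggTCtAAcCggaAttgttttatccaactca
Gm29216, bases 1 to 30: ggATtGGcAggaTttgttttatccaactca
The substitutions from *mt-Co1* to *Gm29216* are T1056A, C1057T, A1059G, A1060G, C1062A and A1066T.

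Among WT mice, all 10 mRNAs were highest in astrocytes, with no overlap of the 3 astrocyte libraries with any microglial or neuronal library. Summed over the members, the WT astrocyte libraries held 991, 1341 and 924 CPM, the WT microglial libraries 311, 428 and 270 CPM, and the WT neuronal libraries 227, 521 and 208 CPM. Of the neuronal libraries, replicates 1 and 3 lay below every microglial library, and replicate 2, the one with the high *Mbp*, lay above them all.

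Of complex I, *mt-Nd4* forms part of the proton-pumping arm, and it was at 213, 320 and 212 CPM in WT astrocytes, 70.0, 97.1 and 55.5 CPM in WT microglia, and 48.0, 102 and 34.3 CPM in WT neurons. *mt-Nd5*, another pumping subunit, was at 63.5, 73.4 and 64.3 CPM in astrocytes, 29.0, 36.1 and 29.1 CPM in microglia, and 25.0, 35.9 and 12.6 CPM in neurons. For either gene the WT microglial and neuronal libraries overlapped, and the astrocyte libraries lay above all of them. *mt-Nd1*, which lies next to the ubiquinone site, was at 57.2, 73.7 and 52.1 CPM in astrocytes, 19.1, 22.4 and 15.7 CPM in microglia, and 8.6, 35.9 and 17.2 CPM in neurons. *mt-Nd2*, a further pumping subunit, was at 38.5, 51.4 and 43.0 CPM in astrocytes, 16.2, 13.7 and 14.8 CPM in microglia, and 11.5, 13.8 and 9.2 CPM in neurons. Replicate 2 was the highest WT neuronal library for each of these 4 mRNAs. *mt-Nd6*, the only member read from the other strand, was at 16.7, 26.2 and 19.6 CPM in astrocytes, 7.6, 9.1 and 4.9 CPM in microglia, and 3.8, 14.7 and 8.0 CPM in neurons. Its smallest value was 4 counts, in replicate 1 of the WT neurons, where 3 counts correspond to 2.88 CPM.

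*mt-Cytb*, the cytochrome b that carries both ubiquinone sites of complex III, was at 173, 248 and 144 CPM in WT astrocytes, 53.8, 71.7 and 41.2 CPM in WT microglia, and 37.4, 85.6 and 33.2 CPM in WT neurons. In complex IV, *mt-Co1* holds the haem a groups and the site where oxygen is reduced. It was at 145, 169 and 123 CPM in astrocytes, 34.4, 58.4 and 35.8 CPM in microglia, and 38.4, 107 and 43.5 CPM in neurons. *mt-Co2*, which accepts the electrons from cytochrome c, was at 129, 181 and 132 CPM in astrocytes, 39.8, 60.5 and 35.4 CPM in microglia, and 23.0, 81.0 and 33.2 CPM in neurons. For these 3 mRNAs, replicate 2 of the WT neurons was above all WT microglial libraries. The other neuronal libraries lay inside the microglial range for *mt-Co1* and below it for *mt-Cytb* and *mt-Co2*. *mt-Co3*, the remaining core subunit, was at 90.6, 115 and 77.9 CPM in astrocytes, 26.1, 33.0 and 21.5 CPM in microglia, and 22.1, 20.2 and 5.7 CPM in neurons. *mt-Atp6*, the subunit that forms the proton channel of complex V with a ring of nuclear-encoded subunits, was at 63.9, 82.2 and 56.6 CPM in astrocytes, 15.3, 26.4 and 16.1 CPM in microglia, and 8.6, 24.8 and 11.4 CPM in neurons. *mt-Co3* was thus the one member whose level was not raised in replicate 2 of the WT neurons over replicate 1.

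**Figure D1:**
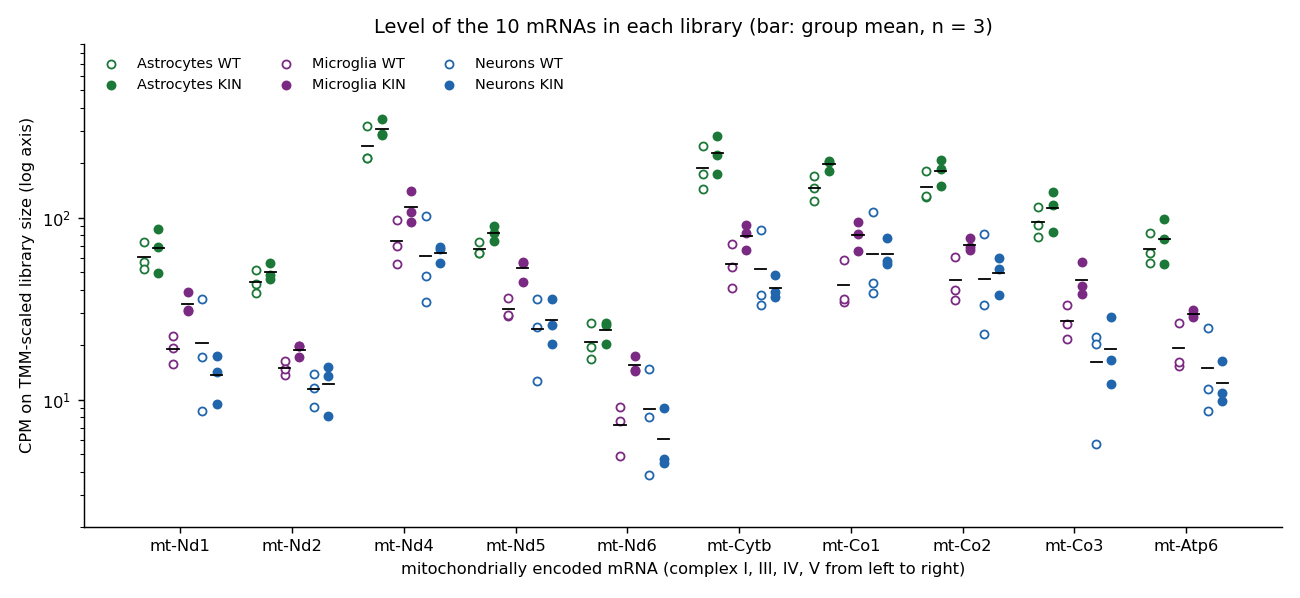
Level of each of the 10 mRNAs in the 18 libraries, as CPM on a log axis, with the mRNAs side by side, a column of points for each fraction (colour) and genotype (open for WT, filled for KIN), a point for each library and a bar for the group mean of 3. The 3 WT astrocyte libraries lie above every WT microglial and neuronal library for all 10 mRNAs.

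The tests followed this order. Relative to WT microglia, all 10 mRNAs were higher in WT astrocytes, by 1.07 ± 0.32 (SE) for *mt-Nd5* to 1.80 ± 0.33 for *mt-Atp6* on the log2 scale, with a median of 1.71 where the median of all 16726 transcripts was 0.05. All 10 were called higher, which needed an adjusted p no greater than 0.05 and a log2 fold change no smaller than 1, as were 14.4% of all transcripts tested. The adjusted p of *mt-Nd5* was 0.00457 and that of *mt-Nd4* 5e-07. The non-overlap of all 10 compares with 22.2% of all transcripts. Of the members, *mt-Nd5* lost its call without replicate 2 of the WT astrocytes (0.98) and without replicate 1 (0.96) or 3 (0.95) of the WT microglia, with an adjusted p of 0.0438 or less. It also lost the call with counts summed by symbol (0.99, adjusted p = 0.00904).

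Relative to WT astrocytes, all 10 were lower in WT neurons, from -1.07 ± 0.32 for *mt-Co1* to -2.40 ± 0.36 for *mt-Co3*, with a median of -1.63 against -0.68 for all transcripts. The calls numbered 9 (13.0% of all transcripts were called lower), and *mt-Nd6* missed it at -1.08 ± 0.41 with an adjusted p of 0.0503. All 10 were without overlap, as were 32.5% of all transcripts in the same direction. Without replicate 2 of the WT neurons all 10 were called, as were 12.1% of all transcripts in either direction, and the median was -2.16. *mt-Nd6* was also called without replicate 1 of the WT astrocytes (-1.22) and without replicate 2 of the WT microglia (-1.03). With all libraries it was called with DESeq2 size factors (-1.15), library totals (-1.43), no filter (-1.52), a mean of 10 or more counts (-1.04), all 18 libraries (-1.22) and the replicate block (-1.13). *mt-Co1* lost its call without replicate 1 (-0.80) or replicate 3 (-0.89) of the WT neurons or replicate 2 of the WT astrocytes (-0.87) and with counts summed by symbol (-0.84, adjusted p = 0.0589), *mt-Nd1* without replicate 1 (-1.03, adjusted p = 0.0671) and *mt-Nd5* without replicate 3 (-1.02, adjusted p = 0.0527) of the WT neurons.

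WT neurons and WT microglia were not told apart. The differences, neurons over microglia, ran from -0.60 ± 0.37 for *mt-Co3* (adjusted p = 0.281) to 0.68 ± 0.32 for *mt-Co1* (adjusted p = 0.141), 5 up and 5 down. No member was called by edgeR, where 15.3% of all transcripts were, and 1 member had an unadjusted p under 0.05, as had 28.1% of all transcripts. DESeq2 called 0 as well. The median was -0.06 against -0.58 over all transcripts. Without replicate 2 of the WT neurons it was -0.52 against -0.77.

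The contrasts in the KIN mice use other animals and libraries. KIN astrocytes exceeded KIN microglia in all 10 mRNAs, by 0.63 ± 0.26 for *mt-Nd6* to 1.49 ± 0.23 for *mt-Cytb*, with a median of 1.32, and 8 were called (19.7% of all transcripts were called higher). *mt-Nd5* (0.64, adjusted p = 0.0155) and *mt-Nd6* (adjusted p = 0.037) passed the adjusted p but not the fold. *mt-Nd1*, at 1.02, fell under the fold and lost its call without replicate 3 of the KIN astrocytes (0.85), without replicate 2 (0.93) or 3 (0.95) of the KIN microglia, with library totals (0.89), with no filter (0.95), with counts summed by symbol (0.90) and with the replicate block (0.99). KIN neurons were lower than KIN astrocytes in all 10, from -1.60 ± 0.25 for *mt-Nd5* to -2.63 ± 0.28 for *mt-Atp6*, with a median of -2.15, and all 10 were called (17.3% lower among all transcripts). KIN neurons were also lower than KIN microglia, from -0.35 ± 0.24 for *mt-Co1* to -1.32 ± 0.35 for *mt-Nd6*, with a median of -0.95 against -0.19 for all transcripts. Of these, *mt-Nd1* (-1.31), *mt-Nd6*, *mt-Co3* (-1.26) and *mt-Atp6* (-1.27) were called, against 16.1% of all transcripts, and 7 passed the adjusted p alone, against 16.6%. *mt-Co1*, *mt-Co2* and *mt-Nd2* did not pass it, at adjusted p values of 0.296, 0.105 and 0.108. Apart from *mt-Co1*, the 9 others had every KIN neuronal library below every KIN microglial one, as did 24.8% of all transcripts. *mt-Nd1* (-0.97) and *mt-Co3* (-0.89) lost the call without replicate 1 of the KIN neurons, where *mt-Nd5* (-1.07) gained it, as *mt-Cytb* (-1.10) did without replicate 2 of the KIN microglia. Whether the neuronal to microglial ratio differed between genotypes is the test of the genotype effects given below.

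In bulk fractions, fewer cells of a type and less RNA per cell cannot be told apart. Several marker lists of cells other than astrocytes also peaked where the members did, in the astrocyte libraries. All 4 oligodendrocyte markers were above 0 in each astrocyte library, with sums of 256 to 396 CPM in WT and 343 to 368 CPM in KIN astrocytes, while the sums were 18.8 to 22.6 CPM in WT and 7.9 to 10.7 CPM in KIN microglia and 6.7 to 22.3 CPM in the neuronal libraries other than WT replicate 2. In that library, where the sum was 203 CPM, *Mog* and *Olig2* were at 0, and the members' sum of 521 CPM was the highest of the 6 neuronal libraries. Replicates 1 and 3 of the WT neurons had both fewer markers and a lower sum of the members than the WT microglia. The KIN neurons had 10.3 to 22.3 CPM of markers, where the KIN microglia had 7.9 to 10.7 CPM, and 272 to 355 CPM of the members against 503 to 567 CPM. The 3 ependymal markers summed to 22.7 to 46.6 CPM in astrocytes and to at most 5.1 CPM elsewhere, and the 3 pericyte markers to 8.7 to 15.0 CPM and at most 3.2 CPM. The part of RNA of these cells in the levels of the members was not tested.

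**Figure D2:**
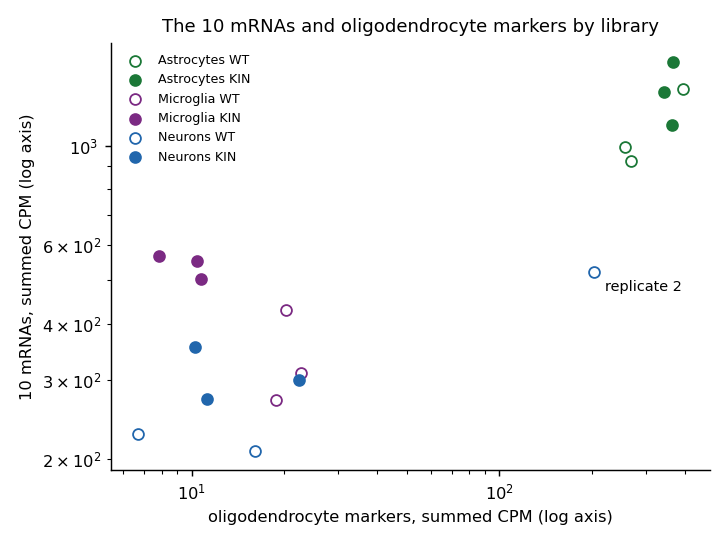
Summed CPM of the 10 mRNAs against the summed CPM of 4 oligodendrocyte markers, both on log axes, with a point for each of the 18 libraries marked by fraction and genotype. The 6 astrocyte libraries lie at the upper right, and replicate 2 of the WT neurons lies apart from the 5 other neuronal libraries, at 203 CPM of markers and 521 CPM of members.

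As a share of all counts, the members made up 0.117%, 0.165% and 0.125% of the WT astrocyte libraries, 0.0346%, 0.0256% and 0.0258% of the WT microglial ones, and 0.0242%, 0.0556% and 0.0239% of the WT neuronal ones. In KIN mice the shares were 0.125%, 0.0970% and 0.148% in astrocytes, 0.0493%, 0.0561% and 0.0613% in microglia, and 0.0237%, 0.0246% and 0.0274% in neurons. The Wilson 95% interval of the lowest share, 0.0237%, ran from 0.0216% to 0.0260%, and that of the highest, 0.165%, from 0.159% to 0.170%. These intervals cover counting error only. The mean share of WT astrocytes, 0.135% ± 0.0256 (SD, n = 3), was 4.72 times that of WT microglia, 0.0287% ± 0.00511, and 3.92 times that of WT neurons, 0.0346% ± 0.0182. Without replicate 2 of the WT neurons the last ratio was 5.63.

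In KIN microglia the mean share was 0.0555% ± 0.00602 (SD, n = 3), 1.94 times that of WT microglia, and the 3 KIN libraries lay above the 3 WT ones. In astrocytes the KIN mean was 0.123% ± 0.0254, a ratio of 0.911, and the libraries overlapped. On TMM-scaled sizes the summed level of the astrocytes was instead higher in KIN, at a mean of 1323 CPM against 1085 CPM in WT, also with overlap. In neurons the KIN mean was 0.0252% ± 0.00193, a ratio of 0.730, again with overlap, and of 1.05 without replicate 2 of the WT neurons. The WT neuronal spread came mainly from replicate 2, at 0.0556%, and the other WT libraries, at 0.0242% and 0.0239%, lay inside the range of the KIN libraries. When the 10 most abundant transcripts were left out of the totals, the microglial shares became 0.153%, 0.166% and 0.132% in WT and 0.264%, 0.245% and 0.264% in KIN, so the KIN libraries remained above. The members held 91.9% to 97.1% of the counts of all 13 mitochondrially encoded mRNAs.

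**Figure D3:**
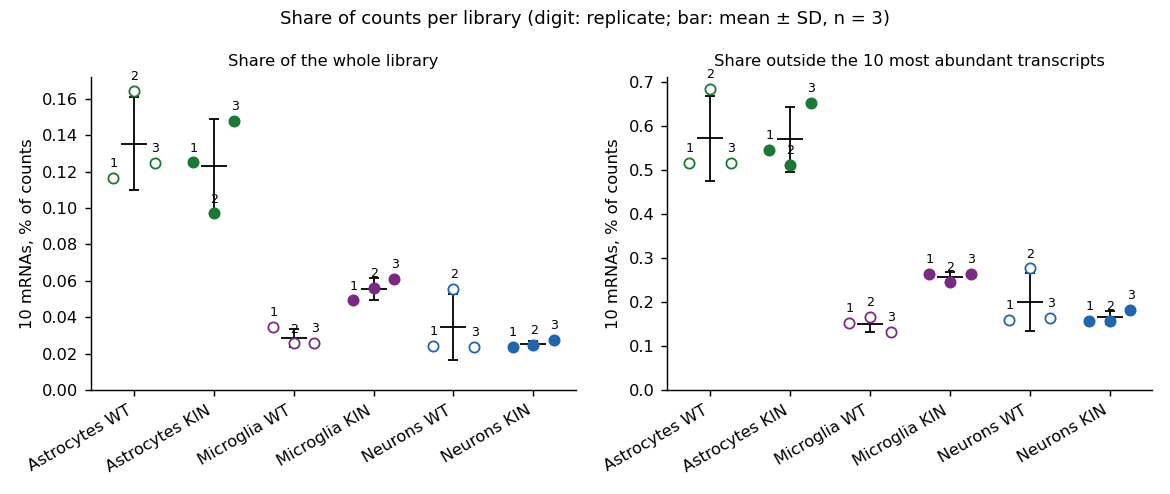
Summed counts of the 10 mRNAs as a percent of all counts of a library (left) and of the counts outside the 10 most abundant transcripts (right), with a point for each of the 18 libraries marked by its replicate number, a column for each fraction and genotype, and a bar for the group mean with its SD. On the left, the KIN microglial libraries, at 0.0493% to 0.0613%, lie above the WT ones, at 0.0256% to 0.0346%, and replicate 2 of the WT neurons lies at 0.0556%.

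Within the members' counts, *mt-Nd4* took 16.5% to 25.4% of the members' counts over the 18 libraries and *mt-Cytb* 12.2% to 18.5%. *mt-Co1* took 12.6% to 16.2% in the astrocyte libraries and 16.9% to 21.7% in the neuronal libraries, with no overlap in counts without the copies. The mean ratio of its copy *Gm29216* to *mt-Co1* was 0.555 in WT and 0.513 in KIN astrocytes. In neurons it was 0.409 in WT and 0.423 in KIN, and the part of the copy in this difference was not tested. *mt-Nd5* took 5.5% to 7.0% in the astrocyte and 7.8% to 11.4% in the microglial libraries, again with no overlap. *mt-Nd2* took 2.7% to 5.5% and *mt-Nd6* 1.6% to 3.8% over all libraries. As each share is of the same sum, a rise in the share of a member lowers those of the others. Counts of the chromosome 1 copies are not in these shares. Their ratio to the mRNA ran from 0.0476 for *mt-Nd4* to 0.896 for *mt-Co2*, so the shares do not rank the members.

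The genotype comparison asked whether the expanded *Atxn2* allele went with a change of these mRNAs in each fraction. None of the 10 was called in any fraction. All 10 differences were positive in microglia, positive in astrocytes with TMM but negative with library totals, and negative in neurons, where 6 turned positive in other fits. In microglia, where 0.920% of all transcripts were called and 0.503% were called higher, all 10 were higher in KIN, by 0.33 to 1.10 on the log2 scale, with a median of 0.71 where that of all 14126 transcripts was -0.03. An unadjusted p under 0.05 was reached by 9 of them with edgeR, where 10.9% of all transcripts reached it, and by 8 with DESeq2, where 6.15% of those with an adjusted p did, and the lowest adjusted p was 0.0771. For 8 of the 10 every KIN library lay above every WT library, as it did for 7.57% of all transcripts, and *mt-Nd4* and *mt-Cytb* were the exceptions. The 10 mRNAs come from few precursor transcripts and from the same 6 libraries, so they are not 10 independent observations.

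Of complex I, *mt-Nd6* was at 7.6, 9.1 and 4.9 CPM in WT and 17.3, 14.6 and 14.3 CPM in KIN microglia, a difference of 1.10 ± 0.31 (SE, edgeR adjusted p = 0.0771). *mt-Nd1* was at 19.1, 22.4 and 15.7 against 38.9, 30.7 and 31.0 CPM, a difference of 0.83 ± 0.27. *mt-Nd5* was at 29.0, 36.1 and 29.1 against 44.4, 57.1 and 56.4 CPM, a difference of 0.76 ± 0.25. For these 3 the lowest KIN library was above the highest WT library. *mt-Nd4* was at 70.0, 97.1 and 55.5 against 140, 94.5 and 107 CPM, with a difference of 0.63 ± 0.25 (adjusted p = 0.299), and WT replicate 2 lay above KIN replicate 2. *mt-Nd2* showed the smallest difference, 0.33 ± 0.28 (adjusted p = 0.77), from 16.2, 13.7 and 14.8 CPM in WT to 19.6, 19.6 and 17.1 CPM in KIN, still without overlap.

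*mt-Cytb* of complex III was at 53.8, 71.7 and 41.2 CPM in WT and 90.7, 66.4 and 82.2 CPM in KIN microglia, a difference of 0.54 ± 0.26 (adjusted p = 0.432) with overlap between KIN replicate 2 and WT replicate 2. Of complex IV, *mt-Co1* was at 34.4, 58.4 and 35.8 against 81.3, 65.3 and 95.1 CPM, a difference of 0.93 ± 0.26 (adjusted p = 0.0771). *mt-Co2* was at 39.8, 60.5 and 35.4 against 66.0, 69.2 and 77.3 CPM, a difference of 0.67 ± 0.26 (adjusted p = 0.261). All 3 KIN libraries exceeded the WT ones for *mt-Co1* and *mt-Co2*, and WT replicate 2 was the highest of the WT libraries for each. *mt-Co3* was at 26.1, 33.0 and 21.5 against 38.1, 56.7 and 42.1 CPM, a difference of 0.78 ± 0.26 (adjusted p = 0.167). *mt-Atp6* of complex V was at 15.3, 26.4 and 16.1 against 31.0, 28.5 and 29.6 CPM, a difference of 0.65 ± 0.27 (adjusted p = 0.339), with the KIN libraries close together at 29.7 ± 1.25 CPM (SD, n = 3).

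The calls in microglia depended on the libraries and the scaling. With all 6 libraries, *mt-Co1* was called when plain library totals were used (1.21, adjusted p = 0.0205, with 0.984% of all transcripts called) and *mt-Nd6* when counts were summed by symbol (1.17, adjusted p = 0.0285, with 1.52% of all genes called). Without replicate 2 of the WT microglia, the library with the most counts and a TMM factor of 0.60, 9 of the 10 passed an adjusted p of 0.05, as did 4.12% of all transcripts, *mt-Nd6* (1.25, adjusted p = 0.00906) and *mt-Co1* (1.19, adjusted p = 0.00028) were called, and the median rose to 0.91. The same step raised the calls over all transcripts from 130, or 0.920%, to 493, or 3.60% of those tested. The sign was positive for all 10 under each scaling and filter tried and with any library left out. In the same libraries, the 4 oligodendrocyte markers summed to 18.8 to 22.6 CPM in WT and 7.9 to 10.7 CPM in KIN, and the 6 neuronal markers to 11.2 to 45.5 CPM and 5.9 to 6.4 CPM. The 6 astrocyte markers, at 17.3 to 24.2 CPM in WT and 13.0 to 15.3 CPM in KIN, and the 3 pericyte markers, at 1.8 to 3.2 CPM and 0.71 to 1.2 CPM, were also lower in KIN without overlap, while the 6 microglial markers summed to 456 to 762 CPM in WT and 505 to 562 CPM in KIN. The part of these other cells in the genotype differences was not tested.

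**Figure D4:**
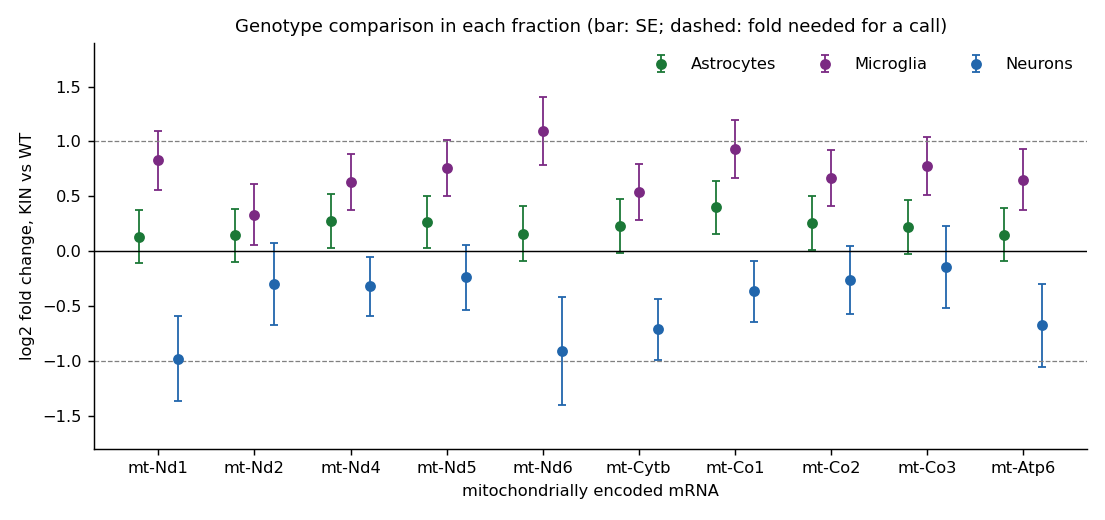
Log2 fold change, KIN over WT, of each of the 10 mRNAs in astrocytes, microglia and neurons, with the standard error as bars, a line at 0 and dashed lines at the fold needed for a call. All 10 lie between 0.33 and 1.10 in microglia, between 0.13 and 0.40 in astrocytes and between -0.98 and -0.14 in neurons.

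In astrocytes, where 8.37% of all transcripts were called, none of the 10 was, none had an unadjusted p under 0.05 with edgeR, where 23.2% of all transcripts had, and DESeq2 called 0. The differences ran from 0.13 ± 0.24 for *mt-Nd1* to 0.40 ± 0.24 for *mt-Co1* (adjusted p = 0.321), all positive with TMM, with a median of 0.23 against -0.02 over all transcripts, but all negative with plain library totals, where the median was -0.18 against -0.39. *mt-Co1* was at 145, 169 and 123 CPM in WT and 180, 203 and 206 CPM in KIN astrocytes, without overlap. *mt-Nd5*, at 63.5, 73.4 and 64.3 against 74.3, 82.8 and 90.2 CPM, was the other member without overlap, and 13.3% of all transcripts were higher in this way. The other 8 overlapped, as *mt-Nd4* did at 213, 320 and 212 CPM in WT and 283, 290 and 347 CPM in KIN. Replicate 3 was the highest KIN astrocyte library for each of the 10, and without it *mt-Nd1* (-0.06) and *mt-Atp6* (-0.05) turned negative. The 6 astrocyte markers were lower in the KIN libraries of this fraction, 281 to 301 CPM against 490 to 704 CPM. The 3 ependymal markers were higher in KIN, 40.9 to 46.6 CPM against 22.7 to 26.2 CPM, and so was the myelin gene *Mog*, 29.6 to 34.6 CPM against 11.9 to 15.6 CPM, although the 4 oligodendrocyte markers together overlapped. The 6 neuronal markers summed to 26.2 to 98.9 CPM in WT and 21.7 to 36.2 CPM in KIN, and *Snap25* was lower in KIN without overlap, 2.8 to 3.8 CPM against 8.2 to 26.6 CPM. *Tubb3* of the same list went the other way with overlap, at 11.0, 15.4 and 22.9 CPM in KIN against 8.7, 6.0 and 11.2 CPM in WT. The part of these in the members' levels was not tested.

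In neurons, where 0.0181% of all transcripts were called, none of the 10 was, with 0 called by DESeq2 too. All 10 differences were negative, from -0.98 ± 0.39 for *mt-Nd1* to -0.14 ± 0.37 for *mt-Co3*, with a median of -0.34 against 0.03 over all transcripts, and 2 members, *mt-Nd1* and *mt-Cytb* (-0.71 ± 0.28), had an unadjusted p under 0.05 (adjusted p = 0.829 for each), as had 5.27% of all transcripts. None was without overlap, where 1.27% of all transcripts were lower in KIN in that way and 17.9% were higher. The KIN neuronal libraries were deeper, with 1473194 to 2017932 counts against 761481 to 1017972, and the part of depth in these shares was not tested. *mt-Nd1* was at 8.6, 35.9 and 17.2 CPM in WT and 9.5, 17.3 and 14.1 CPM in KIN neurons, and *mt-Cytb* at 37.4, 85.6 and 33.2 against 36.5, 39.1 and 48.2 CPM. For either, the WT mean was raised by replicate 2 alone. Without that library the median was -0.09, and *mt-Nd4* (0.17), *mt-Nd5* (0.06), *mt-Co1* (0.17) and *mt-Co2* (0.37) turned positive. In addition, 6 of the 10 were positive when all 18 libraries entered the fit and also when no filter was used. The CPM values use TMM factors over all 18 libraries and the fit uses factors over the 6 neuronal ones, and both can differ in sign, as for *mt-Nd2* at 11.5, 13.8 and 9.2 CPM in WT and 8.1, 15.0 and 13.5 CPM in KIN (-0.30 ± 0.37).

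The difference between the genotype effects was tested as an interaction. Microglia minus astrocytes gave 0.21 to 0.97 for the 10 mRNAs, with a lowest adjusted p of 0.349 (0.822% of all transcripts called). Neurons minus astrocytes gave -0.91 to -0.18, with a lowest adjusted p of 0.427 (0.829% called). Neurons minus microglia gave -1.81 to -0.44, with a lowest adjusted p of 0.147 (0.247% called), and 5 members had an unadjusted p under 0.05, as had 7.52% of all transcripts. Without replicate 2 of the WT neurons, neurons minus astrocytes gave -0.15 to 0.50, with 6 members positive and a lowest adjusted p of 0.664, and neurons minus microglia gave -1.22 to -0.06, with a lowest adjusted p of 0.689. No member was called in any of these tests by edgeR with TMM and all libraries. With plain library totals 2 members were called lower in neurons minus microglia, with a lowest adjusted p of 0.0228, as 0.215% of all transcripts were called. In neurons minus microglia 1 member was called without replicate 2 of the WT microglia (0.412% of all transcripts) and 1 without replicate 1 of the WT neurons (0.229%). In a single fit of the 18 libraries that took the fraction into account, KIN exceeded WT by 0.17 to 0.46, with a median of 0.35 and a lowest adjusted p of 0.207, and none was called (1.88% of all transcripts). Without replicate 2 of the WT neurons the median was 0.49 and the lowest adjusted p 0.0277, and again none was called. This fit and the interactions treated libraries of different fractions as independent although fractions of a brain share an animal, so their p values do not allow for it.

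The nuclear copies of 7 members also held counts. Less similar copies lie on chromosome 2, where *Gm13340* (97.6% identical to *mt-Co1*) held 768 counts, *Gm13341* (95.9% to *mt-Co2*) 619 and *Gm13339* (96.7% to *mt-Nd2*) 67, and on chromosome 13, where *Gm4076* (95.2% to *mt-Nd5*) held 93. Over the 18 libraries, the chromosome 1 copies of *mt-Nd4*, *mt-Co3*, *mt-Atp6*, *mt-Co2* and *mt-Co1* summed to 26.9% to 35.6% of the members' counts, with a median of 31.5%. *Gm28661* held 3397 counts where *mt-Co2* held 3793, a ratio of 0.896, *Gm10925* held 1315 where *mt-Atp6* held 1587, a ratio of 0.829, and *Gm28437* held 1514 where *mt-Co3* held 2290, a ratio of 0.661. *Gm29216* held 2139 counts where *mt-Co1* held 4072, a ratio of 0.525. In contrast, *Gm28439*, identical to the first 876 of the 1378 bases of *mt-Nd4*, held 297 counts where *mt-Nd4* held 6242, a ratio of 0.0476. Of these 5 chromosome 1 copies, the one that lacks the 3′ end of its mitochondrial gene had the lowest ratio, and the others reach within 3 bases of that end. *Gm13340*, *Gm13341* and *Gm13339* reach that end too, with the lower counts given above. Identical sequence does not allow reads to be placed in either genome, so the levels of these 5 members are uncertain by their copy's share.

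When the counts of the chromosome 1 copy were added to each of the 5 members, the numbers of members called did not change in any genotype or fraction comparison. The copies themselves followed the same fractions. As reads of identical sequence can fall to either, this is not a separate observation. *Gm28661*, for instance, was at 110, 157 and 105 CPM in WT astrocytes, 35.0, 55.4 and 34.9 CPM in WT microglia and 41.3, 72.7 and 24.0 CPM in WT neurons, and again replicate 2 was the highest WT neuronal library. *Gm10925* was higher in KIN than in WT microglia by 1.03 ± 0.28 (SE) with an adjusted p of 0.0578, and by 1.10 ± 0.24 with an adjusted p of 0.0154 when counted per gene, where it was called.

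**Figure D5:**
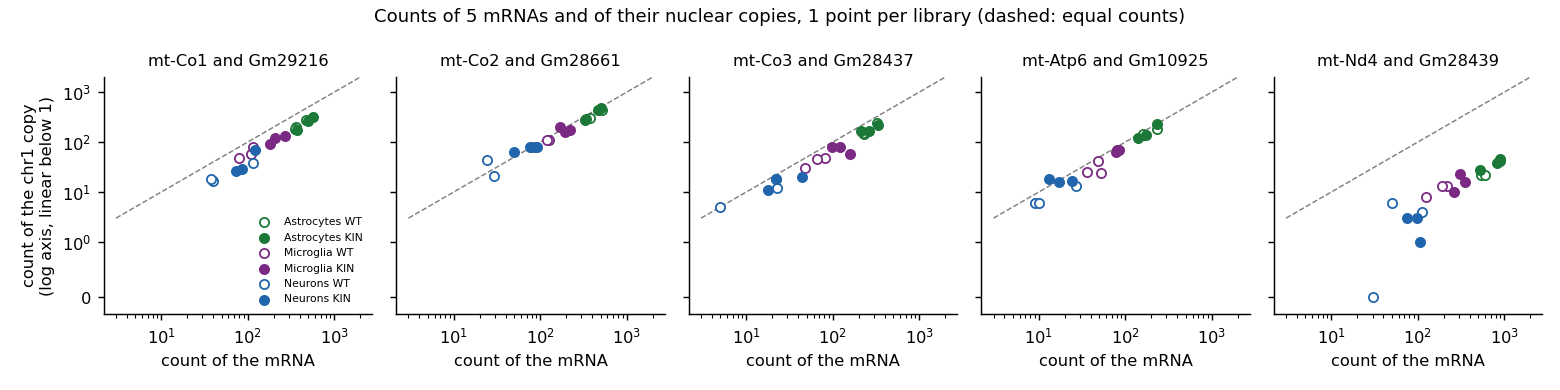
Counts of the nuclear copy (log axis, linear below 1) against counts of the mitochondrial mRNA (log axis) for 5 pairs, with a point for each of the 18 libraries, coloured by fraction and open for WT, and a dashed line at equal counts. The ratio of copy to mRNA lies between 0 and 0.12 for the pair of mt-Nd4, far below the line, and between 0.328 and 1.79 for the pairs of mt-Co1, mt-Co3, mt-Atp6 and mt-Co2.

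The transcripts most like the members over the 18 libraries were these copies, which can hold reads of the members themselves. Their ranks are therefore not a result about separate transcripts. By the correlation of log2 CPM with the mean of the centred members, *Gm28437* (r = 0.973), *Gm10925* (0.968), *Gm29216* (0.960) and *Gm28661* (0.956) came first of 21362 transcripts, and *Tppp3*, a tubulin-binding protein, was the fifth (0.945). Within fractions, after each fraction's mean had been taken out, the values were 0.831, 0.785, 0.828, 0.900 and 0.789. The members correlated with each other at r of 0.821 to 0.985 over their 45 pairs, with a median of 0.924, and at 0.267 to 0.926 within fractions, with a median of 0.733. These correlations share the depth of the libraries and the differences between fractions, and are descriptions.

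The 3 other mitochondrially encoded mRNAs are short. In WT astrocytes *mt-Nd3* was at 36.1, 46.4 and 37.7 CPM, above the member *mt-Nd6* at 16.7 to 26.2 CPM. *mt-Atp8*, at 7.1, 10.6 and 8.0 CPM, and *mt-Nd4l*, at 11.5, 11.0 and 11.5 CPM, were below *mt-Nd6* there. *mt-Nd3* (0.46), *mt-Nd4l* (0.78) and *mt-Atp8* (1.05, adjusted p = 0.39) had positive values in KIN microglia and were not called. In WT astrocytes over WT microglia they were higher by 1.47, 2.05 and 2.10, and all 3 were called. Mitochondrial rRNAs and tRNAs were not analysed here.

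Nuclear genes of the same complexes, counted per gene, give the setting. In KIN against WT astrocytes, 7 of 35 nuclear complex I genes were called higher and 0 lower, with a median of 0.66, while 285 of all 11751 genes were called higher and 754 lower, with a median near 0. *Ndufs7*, an iron-sulfur subunit, rose by 1.15 ± 0.23 (adjusted p = 0.00039) from 91.4, 122 and 92.6 CPM to 172, 305 and 194 CPM. *Ndufa3* (1.28 ± 0.24), *Ndufa7* (1.14 ± 0.25) and *Ndufb9* (1.10 ± 0.25), accessory subunits, rose as well. Of 15 complex V genes, *Atp5e* (1.02 ± 0.24) and *Atp5g2* (1.31 ± 0.32) were called higher, with a median of 0.55, and of 14 genes of mitochondrial RNA processing 1 was, *Slirp* (1.18 ± 0.36), whose product binds mitochondrial mRNAs. None was called of 4 complex II genes (median 0.23), 9 complex III genes (0.52), 11 complex IV genes (0.47), 8 genes of mitochondrial transcription and replication (0.05) or 11 genes of mitochondrial mass (0.24). With plain library totals no complex I gene was called, and their median was 0.23 against -0.42 over all genes, while the 10 mitochondrial mRNAs were all negative. The lower astrocyte markers and *Snap25* and the higher ependymal markers, *Mog* and, with overlap, *Tubb3* of the KIN libraries stand beside these counts too. Their part was not tested.

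In KIN against WT microglia no nuclear gene of these complexes was called (80 of all 10831 genes were called higher and 85 lower). The medians were 0.20 for complex I, 0.07 for complex II, -0.02 for complex III, 0.49 for complex IV and 0.13 for complex V, against 0.71 for the 10 mitochondrial mRNAs in the transcript fit. *Cox6b1* of complex IV had 1.07 ± 0.31 with an adjusted p of 0.0835. In neurons none was called, where 0 of all 6765 genes were called higher and 5 lower.

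In WT astrocytes against WT microglia the nuclear genes went the same way as the members, with 7 of 35 complex I, 2 of 4 complex II, 2 of 9 complex III, 4 of 11 complex IV and 5 of 15 complex V genes called higher and 0 lower (1610 of all 12305 genes were called higher). Their medians, 0.61 to 1.01, were smaller than the 1.71 of the members. Of 11 genes of mitochondrial mass, 2 were called higher and 0 lower, with a median of 0.29. *Cs*, the citrate synthase often used as a measure of mitochondrial content, was higher by 1.47 ± 0.34 and *Slc25a4*, an ADP/ATP carrier, by 1.37 ± 0.35, while the prohibitin gene *Phb2* was lower by the adjusted p alone, at -0.80 ± 0.31 (adjusted p = 0.0392). In WT neurons against WT astrocytes, no nuclear gene of complexes I to IV was called, with medians of -0.15, -0.89, -0.15 and -0.13, where 747 of all 12305 genes were called higher and 1460 lower, with a median of -0.34. Of 15 complex V genes, *Atp5g2* was called higher (1.25) and *Atp5a1* lower (-1.47). Of the 11 genes of mitochondrial mass, 4 were called lower and 0 higher, with a median of -1.42, namely *Cs* (-1.47 ± 0.43), *Timm23*, *Slc25a4* and *Slc25a5*. In WT neurons against WT microglia, where no member was called, 4 of 35 complex I, 1 of 9 complex III, 2 of 11 complex IV and 3 of 15 complex V genes were called higher, where 651 of all 12305 genes were, among them *Atp5b* (1.20 ± 0.34) and *Cox6b1* (1.45 ± 0.40).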

How the data were processed

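The deposited table holds whole counts per transcript, not normalized. The authors removed duplicate reads by molecular identifiers, trimmed them with cutadapt 4.6, mapped them in steps with Bowtie2 2.4.4 to non-coding RNA and then to mm39 references, and counted them with HTSeq 2.0.2 without regard to strand. Their fold changes and p values, and 36 further per-sample columns, were left out.

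Groups came from the sample labels. The replicates of a group are different mice, per the study's methods, of both sexes, which the labels do not assign. Transcripts that reached 5 reads in 2 or more libraries were tested with edgeR 4.0.16 (quasi-likelihood, TMM), adjusted by Benjamini-Hochberg over all transcripts of the fit, and called where the adjusted p did not exceed 0.05 and the log2 fold change was 1 or more in size. The entries included 137 without a symbol. Genotype was fitted within each fraction (6 libraries), fractions within each genotype (9), interactions on 12 and the compound comparison on 18. Intervals of shares are Wilson intervals. Standard errors are the fold change over the root of F. Nuclear gene lists were counted per symbol. Positions and sequences are from GRCm39 with GENCODE vM39, the assembly of mm39. Scripts were tested on simulated data.

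The members, gene lists and tests were chosen with earlier results of these data known. Named genes are the members, the 5 transcripts most like them, and, of each list, the most abundant 3 and up to 4 called genes by adjusted p for each comparison. Of 18 complex V genes 15 were found, some by an older symbol. Alternatives were DESeq2 1.42.0, its size factors, plain library totals, TMM without mitochondrial or without the 10 most abundant transcripts, no filter, a mean of 10 or more counts, sums per gene, all 18 libraries, the replicate block and each replicate left out. Adding the nuclear copies, leaving out replicate 2 of the WT neurons and the complex I list under library totals were chosen after seeing the data.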

Additional observations from a re-analysis of the deposited data

How the results depend on the processing

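Of the counts of members called and share ratios, 319 values under alternatives stayed within their limit and 12 moved. In KIN against WT microglia, 0 members were called with TMM, 1 with plain library totals and 1 with counts summed by gene symbol, and leaving out a replicate gave 0 to 2, the 2 without replicate 2 of the WT microglia. In KIN neurons against KIN microglia, 4 became 7 with the adjusted p alone, 7 with library totals and 7 without the filter. The neuronal minus microglial KIN effect had 2 calls with library totals and 0 to 1 over the replicates left out. The complex I list had 0 calls with library totals. On TMM-scaled sizes the log2 share ratio of KIN over WT astrocytes moved from -0.13 to 0.29 and that of WT astrocytes over microglia from 2.24 to 1.69. The cause was not tested for any of these.

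Of the single mRNAs, 1615 values kept their direction and side of the threshold, 52 reversed, 23 passed and 19 lost it. In KIN against WT astrocytes, library totals gave *mt-Nd1* -0.28, *mt-Nd2* -0.25, *mt-Nd4* -0.12, *mt-Nd5* -0.14, *mt-Nd6* -0.24, *mt-Co1* -7.2e-05, *mt-Co2* -0.15, *mt-Co3* -0.19, *mt-Cytb* -0.17 and *mt-Atp6* -0.26, and leaving out a replicate moved *mt-Nd1* over -0.057 to 0.37 and *mt-Atp6* over -0.050 to 0.39. In neurons, no filter gave *mt-Nd2* 0.10, *mt-Nd4* 0.083, *mt-Nd5* 0.17, *mt-Co1* 0.044, *mt-Co2* 0.15 and *mt-Co3* 0.26, and the fit of all 18 libraries 0.068, 0.047, 0.14, 0.0040, 0.11 and 0.22. Leaving out a replicate moved *mt-Nd4* over -0.54 to 0.17, *mt-Nd5* over -0.48 to 0.062, *mt-Co1* over -0.66 to 0.17, *mt-Co2* over -0.62 to 0.37 and *mt-Co3* over -0.54 to 0.11. In WT neurons against WT microglia, no filter gave *mt-Nd1* -0.26, *mt-Nd6* -0.087, *mt-Co2* -0.35 and *mt-Cytb* -0.47, library totals *mt-Nd4* 0.089 and *mt-Atp6* 0.036, the mean of 10 counts *mt-Nd4* 0.074 and *mt-Atp6* 0.014, all 18 libraries *mt-Cytb* -0.079 and the replicate block *mt-Cytb* -0.048. There the ranges over replicates were -0.43 to 0.63 for *mt-Nd1*, -0.70 to 0.12 for *mt-Nd4*, -0.58 to 0.062 for *mt-Nd5*, -0.17 to 0.82 for *mt-Nd6*, -0.54 to 0.48 for *mt-Co2*, -0.50 to 0.25 for *mt-Cytb* and -0.79 to 0.086 for *mt-Atp6*.

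Same-numbered libraries of paired groups correlated in their deviations at -0.187 to 0.240, and not each pair was over 0.1. The numbers were therefore not used to pair the samples, although correlations over 3 libraries a group cannot exclude a pairing. With the replicate number as a block, the members called were 0 in each genotype comparison, 10 in place of 9 in WT neurons against astrocytes and 7 in place of 8 in KIN astrocytes against microglia, and calls over all transcripts were 1410, 91 and 0 in place of 1302, 130 and 1 in astrocytes, microglia and neurons. DESeq2 in place of edgeR called 358, 41 and 0 of all transcripts in those 3 comparisons, and 0 of the members in each. The neuronal libraries had the fewest counts, and *mt-Nd6* was at 4 counts in replicate 1 of the WT neurons.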
